A study of Homo sapiens with 24 samples.

Results

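The genes described here are the constant region genes of the human immunoglobulin chains and the gene of the joining chain that links them: IGHM, IGHD, IGHG1, IGHG3, IGHG4 and IGHA1 for the heavy chain, IGKC, IGLC2 and IGLC3 for the light chain, and JCHAIN. They were taken from a named list and found by symbol in the deposited RNA-seq count table, as 10 of 58676 gene IDs. All 10 passed the filter on low counts, as did 17327 IDs in all, although several were near 0 in some of the lines.

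An antibody has paired heavy and light chains, each made of a variable region that binds antigen and a constant region that sets its class. A B cell first joins its variable region to the mu and delta constant genes, IGHM and IGHD, and class switching then replaces them with a gamma, alpha or epsilon gene that lies farther along the same locus. Each B cell uses either the kappa constant gene or a lambda one, and the J chain, made mostly by antibody-secreting cells, joins IgM and IgA into polymers. B-cell lymphomas usually keep the chains of the cell they came from, which is why the constant genes read out the identity of a line.

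The study treated 4 lines of diffuse large B-cell lymphoma (U-2932, OCI-LY3, OCI-LY19 and SU-DHL-10) with TAK-981, an inhibitor of the enzyme that activates SUMO, the small protein that cells attach to other proteins to alter their function. Poly(A) RNA was sequenced after 8 h of the drug and at 0 h, with 2 replicate libraries per line and time and 16 in all. Every group, 0 h included, carries the genotype label WT, the cell type label of a B cell and TAK-981 as its treatment label, and the labels give no dose. Vehicle-treated cells at 8 h were not analysed here, so time in culture and the drug cannot be told apart. The labels do not say whether replicates were separate cultures, so the p-values measure the spread between these libraries, which may be technical.

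The libraries held 16770677 to 24694466 gene counts. Levels are given as CPM, a gene's counts over the TMM-scaled library size, and are not corrected for gene length. None of 8 pan-B-cell markers was at 0 in any group (summed 1698 to 4138 CPM per library), whereas 8 T and NK cell markers summed to at most 4.72 CPM, with CD3D at 0 counts in every group, and 6 myeloid markers to at most 13.7 CPM. Epithelial and stromal markers summed to 71.9 to 174 CPM in OCI-LY3 and OCI-LY19 libraries, nearly all of it COL1A1, and to at most 11.7 CPM elsewhere. The label of SU-DHL-10 is in doubt, because the design text of the series names SU-DHL4 in its place. OCI-LY3 and OCI-LY19 libraries resembled each other more than any other pair did (Pearson r of log2 CPM across 17327 genes 0.978 at 0 h, against 0.817 to 0.878 for the other pairs, as a description), so agreement between them may not be that of independent lines.

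Genes of the gamma class share most of their sequence, as do the lambda constant genes. The sources used here do not say how reads that match several of these genes were counted, nor whether counting used strand. The split of counts among IGHG1, IGHG3 and IGHG4 and between IGLC2 and IGLC3 is therefore uncertain. Overlap in the annotation is a separate matter. IGLC1 was at 0 counts in all 16 libraries, while IGLL5, which overlaps it in the RefSeq annotation, held 61 to 2180 counts. Whether the overlap or the shared sequence underlies this was not tested. The sum of the gamma genes is therefore given beside the single genes for the change at 8 h. It is not given for the levels at 0 h, and the lambda genes are given singly.

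Each line had a dominant heavy chain gene at both times. In SU-DHL-10, IGHG4 made up 95.2% and 95% of all heavy chain constant counts at 8 h, against 94.8% and 93.5% at 0 h, and IGHM was all but absent. In U-2932, IGHM made up 95.5% and 95.7% at 8 h, against 96.3% and 96.1% at 0 h, with IGHG3 next at 3.89% and 3.68% at 8 h, against 2.67% and 2.85% at 0 h. In OCI-LY3, IGHM held 96.4% and 96.3% at 8 h, against 94.0% and 94.1% at 0 h, and in OCI-LY19 it held 96.0% and 95.9% at 8 h, against 90.0% in both libraries at 0 h. The rest in these 2 lines was mostly IGHG1, which held 2.30% and 2.24% of the OCI-LY19 counts at 8 h, against 6.91% and 6.98% at 0 h. The 95% exact (Clopper-Pearson) interval of the IGHM share in OCI-LY19 was 95.7% to 96.1% in both 8 h libraries, against 89.7% to 90.3% and 89.6% to 90.3% at 0 h. These intervals cover counting error only, and the shares are of counts not corrected for gene length.

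The light chains split the lines the same way. IGKC gave 0.214% and 0.180% of light chain constant counts (IGKC, the IGLC genes and IGLL5) in SU-DHL-10 at 8 h, against 0.162% and 0.204% at 0 h, where IGLC2 took nearly all the rest. In U-2932 the IGKC share was 93.2% and 93.3% at 8 h, against 94.5% and 94.3% at 0 h. OCI-LY3 had 74.9% and 76.4% at 8 h, against 76.5% and 77.7% at 0 h, and OCI-LY19 had 80.2% and 79.0% at 8 h, against 80.7% and 84.5% at 0 h. In these 2 lines IGLL5 was the largest part of the remainder, and without IGLL5 and the other genes outside the 10 the IGKC share was 94.2% in OCI-LY3 and 94.7% in OCI-LY19 at 8 h, against 94.0% in each at 0 h. IGKC, IGLC2 and IGLC3 are of nearly the same length in RefSeq (323, 320 and 320 bases), so the shares within the 10 genes compare genes of like length, while those that count IGLL5 do not.

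**Figure D1:**
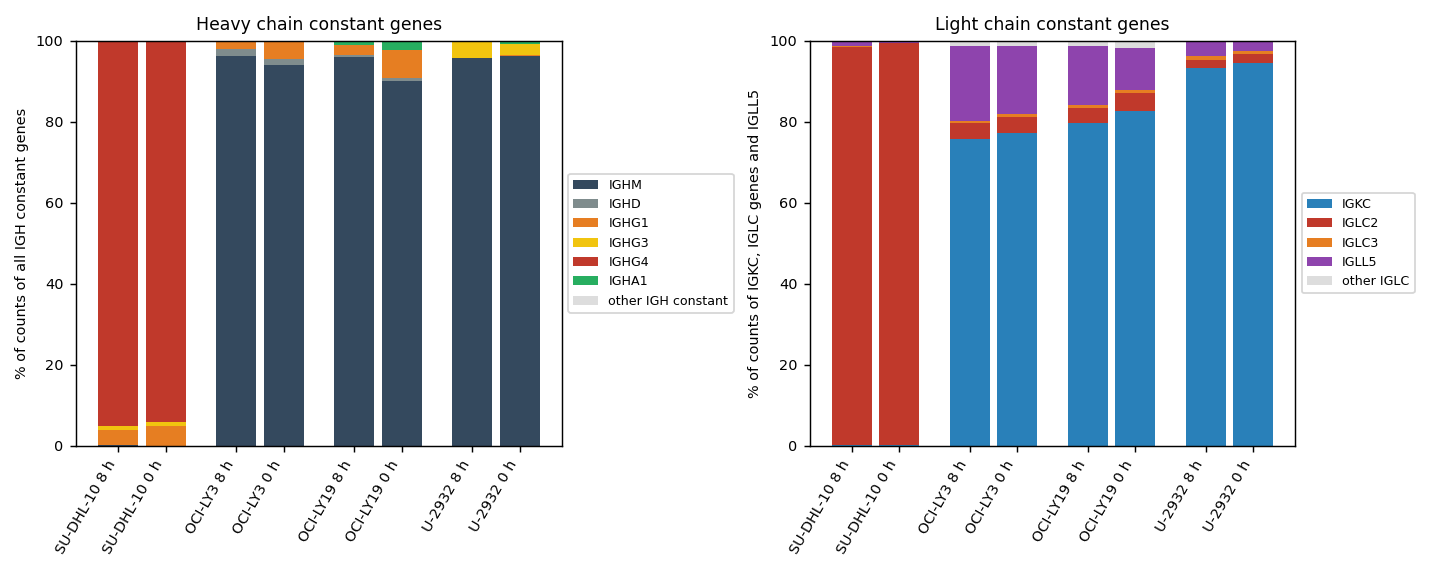
Share of each constant gene in the heavy chain counts (left) and light chain counts (right), in percent, as the mean of 2 libraries per line and time. IGHG4 and IGLC2 fill the SU-DHL-10 bars and IGHM and IGKC fill most of the bars of the other 3 lines, at 8 h as at 0 h.

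Taken as 1 sum, the 10 genes made up 0.927% and 0.951% of all gene counts in U-2932 at 8 h, against 2.09% and 1.91% at 0 h. The share was 0.171% and 0.178% in OCI-LY3 at 8 h, against 0.237% and 0.236% at 0 h, and 0.191% and 0.189% in OCI-LY19 at 8 h, against 0.225% and 0.237% at 0 h. In SU-DHL-10 it was 0.222% and 0.219% at 8 h, against 0.281% and 0.221% at 0 h. The libraries of the 2 times did not overlap in 3 lines, while in SU-DHL-10 the second 0 h library lay among those at 8 h. From bulk RNA, fewer cells of a type and less RNA per cell cannot be told apart.

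At 0 h the lines were set against each other in 6 pairs, each by edgeR's quasi-likelihood test with p-values adjusted over all genes tested after Benjamini and Hochberg. U-2932 differed from SU-DHL-10 in 10 of 10 genes (68.7% of all genes tested), with 7 higher (36.5% of all genes) and 3 lower (32.2%). It differed from OCI-LY3 in 9 of 10 (69.3% of all genes), with 8 higher (36.2%) and 1 lower (33.2%), and from OCI-LY19 in 10 of 10 (70.6%), with 9 higher (37%) and 1 lower (33.6%). OCI-LY3 differed from SU-DHL-10 in 10 of 10 (57.2%), with 6 higher (29%) and 4 lower (28.1%). OCI-LY19 differed from SU-DHL-10 in 10 of 10 (63.8%), with 7 higher (32.6%) and 3 lower (31.2%), and from OCI-LY3 in 10 of 10 (39.4%), with 3 higher (18%) and 7 lower (21.4%). With most genes called in most pairs, these counts say little about the 10 genes, and the sizes of the differences carry the description.

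IGHM, the mu constant gene, averaged 14242 ± 1126 CPM in U-2932, 1623 ± 6.98 in OCI-LY3 and 1429 ± 83.3 in OCI-LY19 (SD, n = 2 each), against 1 count over both SU-DHL-10 libraries. U-2932 exceeded OCI-LY3 by 3.13 ± 0.07 on the log2 scale (adjusted p = 6.8e-28). OCI-LY19 and OCI-LY3 were neighbours, with a difference of -0.18 ± 0.07 (adjusted p = 0.0275) that did not pass with RLE scaling (adjusted p = 0.0667) and was 0.02 without TMM. The ratio of U-2932 to the single count in SU-DHL-10 has an exact counting interval from 112751 to 24813100, too wide to use as a fold.

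IGHD, the delta gene that is spliced from the same primary transcript as mu, averaged 23.5 ± 1.82 CPM in OCI-LY3, 23.0 ± 4.96 in U-2932 and 11 ± 0.376 in OCI-LY19 (SD, n = 2 each), with 0 counts in all 4 SU-DHL-10 libraries. Against a floor of 3 counts over the SU-DHL-10 group, IGHD was at least 347-fold higher in OCI-LY3, 337-fold in U-2932 and 163-fold in OCI-LY19. With TMM scaling U-2932 and OCI-LY3 did not differ beyond their spread (log2 difference -0.03 ± 0.14, adjusted p = 0.837), although U-2932 held more IGHM. With spike-in scaling IGHD was lower in U-2932 than in OCI-LY3 (-3.00, adjusted p = 9.23e-46). IGHD was 0.176% and 0.145% of the IGHM and IGHD counts of U-2932 at 0 h, 1.51% and 1.35% of those of OCI-LY3, and 0.780% and 0.754% of those of OCI-LY19.

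IGHG4 and IGHG3 were each highest in another line. IGHG4 averaged 1688 ± 249.8 CPM in SU-DHL-10, with 2.52 ± 0.765 in U-2932 and under 1 CPM in the other 2 lines, and its log2 difference of U-2932 from SU-DHL-10 was -9.40 ± 0.17 (adjusted p = 2.55e-31). IGHG3 averaged 408 ± 13 CPM in U-2932 and 15.6 ± 0.303 in SU-DHL-10, a log2 difference of 4.71 ± 0.09 (adjusted p = 1.06e-30), with 1.12 ± 0.366 in OCI-LY19 and 0.512 ± 0.169 in OCI-LY3. IGHG1 was counted in every line, at 19.9 ± 0.704 CPM for U-2932, 75.0 ± 0.129 for OCI-LY3, 110.3 ± 7.24 for OCI-LY19 and 87.0 ± 2.16 for SU-DHL-10 (SD, n = 2 each). U-2932, the line with the most IGHG3, had the least IGHG1, at -2.47 ± 0.09 against OCI-LY19 (adjusted p = 5.61e-22) and -1.91 ± 0.09 against OCI-LY3 (adjusted p = 9.39e-19). This order is of the single gene and not of the gamma genes summed. IGHG3 alone in U-2932 (408 CPM) exceeded IGHG1 in every line, so U-2932 did not have the lowest gamma level.

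IGHA1, the gene of IgA1, was highest in U-2932 (100.4 ± 6.19 CPM), then OCI-LY19 (33.3 ± 2.25), OCI-LY3 (2.35 ± 0.154) and SU-DHL-10 (0.499 ± 0.201; SD, n = 2 each). OCI-LY19 exceeded OCI-LY3 by 3.82 ± 0.16 on the log2 scale (adjusted p = 1.83e-19), although the libraries of these 2 lines were the most alike by correlation across genes.

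IGKC averaged 4698 ± 437 CPM in U-2932, 383 ± 4.25 for OCI-LY3, 277 ± 8.60 for OCI-LY19 and 1.06 ± 0.141 for SU-DHL-10 (SD, n = 2 each). Each neighbouring pair passed the test, the closest being OCI-LY19 against OCI-LY3 with a log2 difference of -0.47 ± 0.06 (adjusted p = 1.6e-07). IGLC2 was highest in the line with the least IGKC, at 589 ± 173 CPM in SU-DHL-10, 114 ± 5.18 in U-2932, 20.6 ± 2.78 in OCI-LY3 and 15.0 ± 1.82 in OCI-LY19. IGLC3 reached 41.7 ± 1.88 CPM in U-2932 and 0.271 ± 0.0592 in SU-DHL-10, although SU-DHL-10 had the most IGLC2. IGLC2 held 73.3% of the IGLC2 and IGLC3 counts in both U-2932 libraries at 0 h, and all but 7 of 15937 and 5 of 10193 in SU-DHL-10.

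JCHAIN, on the TMM scale, spanned the narrowest range of the 10 genes, at 459.9 ± 24.2 CPM in U-2932, 340.0 ± 27.6 for OCI-LY3, 216 ± 17.3 for OCI-LY19 and 169.6 ± 9.79 for SU-DHL-10 (SD, n = 2 each). Its widest difference, U-2932 over SU-DHL-10, was 1.44 ± 0.07 on the log2 scale (adjusted p = 1.48e-18), and it was counted in a line with almost no IGHM or IGHA1.

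**Figure D2:**
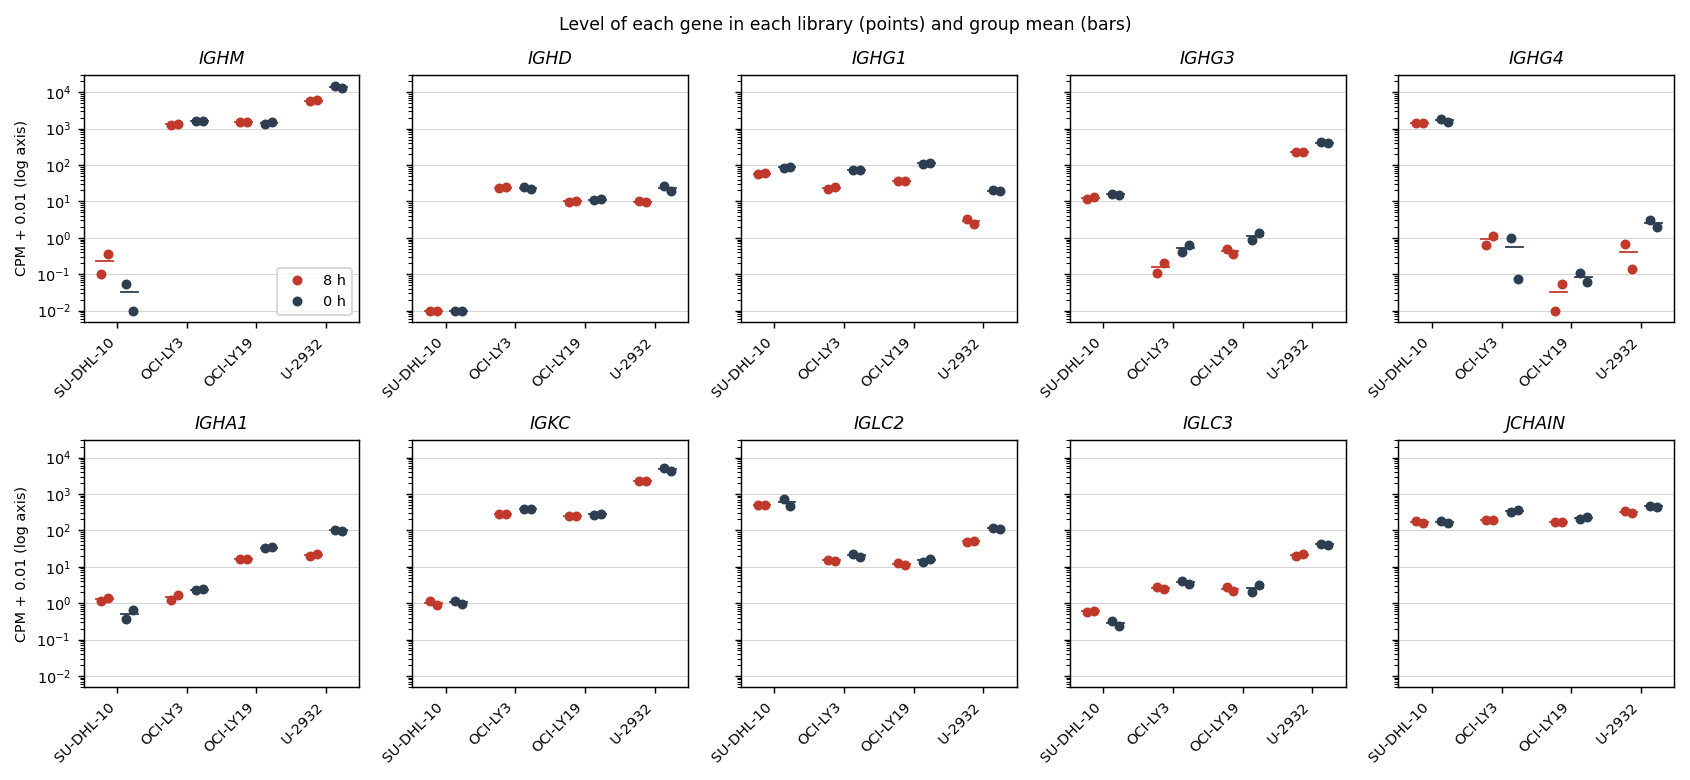
CPM + 0.01 of each gene (log axis, TMM-scaled library sizes) in each of the 16 libraries, with 8 h in red left of 0 h in dark blue for each line and bars at the mean of 2 libraries. IGHM, IGHD, IGHG4, IGKC and IGHG3 differ between lines by far more than they do between times, while JCHAIN spans a narrow range.

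These orders between lines rest on TMM scaling. Spike-in RNAs took 0.382% to 0.620% of counts in U-2932 and OCI-LY19 libraries and 0.0435% to 0.0823% in those of OCI-LY3 and SU-DHL-10, and scaling by them put the median of all genes at 0 h at -3.51 (log2) for U-2932 against SU-DHL-10 and at -2.88 for U-2932 against OCI-LY3, where TMM had it at 0.08 and 0.05. On that scale JCHAIN was lower in U-2932 than in SU-DHL-10 (-2.20) and lower than in OCI-LY3 (-2.52), and IGHM no longer differed between U-2932 and OCI-LY3 (0.17, adjusted p = 0.276), whereas IGHM, IGHD and IGKC kept their calls as higher, and IGHG4 as lower, in U-2932 than in SU-DHL-10. For OCI-LY19, IGHG1 turned to -3.03 against SU-DHL-10 and to -2.14 against OCI-LY3.

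The change at 8 h of TAK-981 was then tested within each line. All 10 genes fell in U-2932, where 25% of all genes tested were called lower and 25.9% higher. In OCI-LY3, 7 of 10 fell (12.5% of all genes) and 0 rose (13%). In OCI-LY19, 4 of 10 fell (17.8% of all genes) and 0 rose (21.6%). In SU-DHL-10, 2 fell (6.27% of all genes) and 2 rose (6.3%), a count that was 1 on the SU-DHL-10 libraries alone (10.9% of all genes) and 1 to 5 when single libraries were left out. The median change of the 10 genes was -1.22 (log2) in U-2932 and -0.50 in OCI-LY3, while the median of all genes tested was 0 in both.

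**Figure D3:**
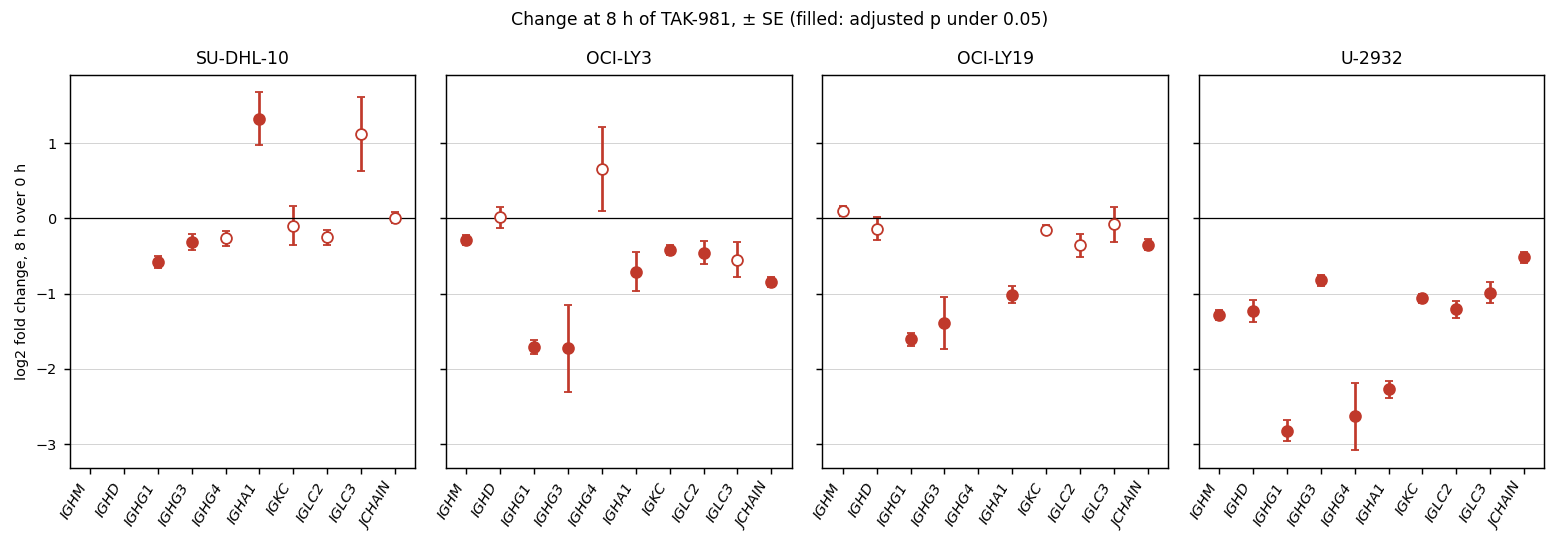
Log2 fold change of each gene at 8 h over 0 h (± SE, edgeR) in the 4 lines, filled where the adjusted p was under 0.05. IGHG1 and IGHG3 are filled and below 0 in all 4 panels; IGHM and IGHD in SU-DHL-10 and IGHG4 in OCI-LY19 have no point because a group held at most 3 counts.

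IGHM had 5650.1 and 6024 CPM in the U-2932 libraries at 8 h, against 15038 and 13445 CPM at 0 h. The times did not overlap, and IGHM fell by 1.29 ± 0.07 on the log2 scale (adjusted p = 6.39e-17). In OCI-LY3 it had 1286 and 1366 CPM at 8 h, against 1618 and 1628 CPM at 0 h, a small change of -0.29 ± 0.07 (adjusted p = 0.00105). In OCI-LY19 it had 1553 and 1514 CPM at 8 h, against 1370.3 and 1488 CPM at 0 h, and the change of 0.10 ± 0.07 did not pass (adjusted p = 0.251). SU-DHL-10 held 10 IGHM counts over both libraries at 8 h, against 1 at 0 h, a ratio of 9.77 with a counting interval of 1.39 to 424. The adjusted p was 0.0353 in edgeR and 0.12 in DESeq2, and the call was lost without the second 8 h library or either 0 h library.

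IGHD also fell in U-2932, with 10.2 and 9.36 CPM at 8 h, against 26.5 and 19.5 CPM at 0 h (log2 change -1.23 ± 0.14, adjusted p = 1.25e-08). It had 23.3 and 24.2 CPM in OCI-LY3 at 8 h, against 24.8 and 22.2 CPM at 0 h, with overlapping times (0.01 ± 0.14, adjusted p = 0.999). In OCI-LY19 it had 9.69 and 10.4 CPM at 8 h, against 10.8 and 11.3 CPM at 0 h (-0.14 ± 0.15, adjusted p = 0.523). IGHD stayed at 0 counts in SU-DHL-10, which allows up to 0.0663 CPM at 8 h and 0.0678 CPM at 0 h over the group at 3 counts.

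IGHG1, the gene of the most abundant IgG in serum, and IGHG3 were the 2 genes of the list called lower in all 4 lines. IGHG1 had 3.29 and 2.35 CPM in U-2932 at 8 h, against 20.4 and 19.4 CPM at 0 h (log2 change -2.82 ± 0.14, a 7.07-fold decrease, adjusted p = 1.09e-17). In OCI-LY3 it had 21.3 and 24.5 CPM at 8 h, against 74.9 and 75.1 CPM at 0 h (-1.71 ± 0.09, adjusted p = 2.03e-16). In OCI-LY19 it had 37.2 and 35.3 CPM at 8 h, against 105 and 115 CPM at 0 h (-1.61 ± 0.09, adjusted p = 6.96e-17). In SU-DHL-10 it had 57.9 and 58.6 CPM at 8 h, against 85.4 and 88.5 CPM at 0 h (-0.58 ± 0.08, adjusted p = 6.92e-06). The libraries of the 2 times stood apart in all 4 lines, and IGHG1 is a minor heavy chain gene in each. The SU-DHL-10 call was lost with spike-in scaling (-0.44, adjusted p = 0.101), while the other 3 lines kept theirs.

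IGHG3, the gene of the gamma subclass with the longest hinge, had 229.9 and 231 CPM in U-2932 at 8 h, against 417 and 399 CPM at 0 h (-0.82 ± 0.07, adjusted p = 7.36e-12). In OCI-LY19 it held 11 and 8 counts at 8 h, against 18 and 27 at 0 h (-1.39 ± 0.35, adjusted p = 0.00159). OCI-LY3 had 2 and 4 counts at 8 h, against 7 and 10 at 0 h (-1.73 ± 0.58, adjusted p = 0.0255). In both lines the times did not overlap, but the OCI-LY19 call was lost without its second 0 h library and the OCI-LY3 call without its first 8 h or second 0 h library. SU-DHL-10 had 11.8 and 13.3 CPM at 8 h, against 15.8 and 15.3 CPM at 0 h (-0.31 ± 0.10, adjusted p = 0.0366). Leaving out a single library ended the call in SU-DHL-10 for 6 of the 16, with adjusted p up to 0.363.

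IGHG4, the dominant heavy chain gene of SU-DHL-10, had 1418 and 1395 CPM there at 8 h, against 1864 and 1511 CPM at 0 h. All 8 h values lay below those of 0 h, yet the change of -0.26 ± 0.10 did not pass (adjusted p = 0.0743), and the first 0 h library carried most of it (-0.10 without that library). The 4 gamma genes summed gave -0.28 in SU-DHL-10 (adjusted p = 0.00724). In U-2932 IGHG4 held 15 and 3 counts at 8 h, against 52 and 37 at 0 h (-2.63 ± 0.45, adjusted p = 6.4e-06). In OCI-LY3 it held 13 and 23 counts at 8 h, against 18 and 1 at 0 h (0.66 ± 0.56, adjusted p = 0.448), with overlapping times, and the change was 3.70 (adjusted p = 0.0122) without the first 0 h library. In OCI-LY19 it held 0 and 1 at 8 h, against 2 and 1 at 0 h. The sum of the gamma genes, which is mostly IGHG1 in OCI-LY3 and OCI-LY19 and mostly IGHG3 in U-2932, fell by 0.89 in U-2932, 1.65 in OCI-LY3 and 1.61 in OCI-LY19 on the log2 scale.

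IGHA1 had 19.3 and 22.2 CPM in U-2932 at 8 h, against 105 and 96.1 CPM at 0 h (-2.27 ± 0.11, adjusted p = 8.63e-18). In OCI-LY19 it had 16.7 and 16.3 CPM at 8 h, against 31.7 and 34.9 CPM at 0 h (-1.01 ± 0.11, adjusted p = 6.13e-09). In OCI-LY3 it held 24 and 34 counts at 8 h, against 40 and 39 at 0 h (-0.71 ± 0.26, adjusted p = 0.0421). SU-DHL-10 went the other way, with 25 and 32 counts at 8 h, against 8 and 14 at 0 h (1.33 ± 0.35, adjusted p = 0.0086). The times were apart in every line. The SU-DHL-10 call was lost without its second 8 h or first 0 h library. Fitted on the libraries of its own line alone, IGHA1 had an adjusted p of 0.14 for OCI-LY3 and 0.0844 for SU-DHL-10.

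Of the light chain genes, IGKC had 2222 and 2271 CPM in U-2932 at 8 h, against 5007 and 4389 CPM at 0 h (-1.06 ± 0.06, adjusted p = 5.38e-16). In OCI-LY3 it had 288 and 286 CPM at 8 h, against 379.9 and 386 CPM at 0 h (-0.42 ± 0.06, adjusted p = 2.48e-06). OCI-LY19 had 252 and 246 CPM at 8 h, against 270.4 and 283 CPM at 0 h, a gap without overlap that did not pass (-0.15 ± 0.06, adjusted p = 0.0557). In SU-DHL-10, where kappa is nearly unused, IGKC held 25 and 20 counts at 8 h, against 26 and 21 at 0 h (-0.10 ± 0.26, adjusted p = 0.933).

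IGLC2 had 509 and 481 CPM in SU-DHL-10 at 8 h, against 712 and 466 CPM at 0 h. The times overlapped, and the change of -0.25 ± 0.10 did not pass (adjusted p = 0.114), being -0.52 (adjusted p = 4.67e-06) without the second 0 h library and 0.09 without the first. In U-2932 it had 47.4 and 51.4 CPM at 8 h, against 118 and 111 CPM at 0 h (-1.21 ± 0.12, adjusted p = 8.33e-11). In OCI-LY3 it had 15.7 and 14.4 CPM at 8 h, against 22.5 and 18.6 CPM at 0 h (-0.46 ± 0.15, adjusted p = 0.0237 in edgeR and 0.0996 in DESeq2), and in OCI-LY19 12.4 and 10.9 CPM at 8 h, against 13.7 and 16.3 CPM at 0 h (-0.36 ± 0.16, adjusted p = 0.0724). IGLC3 had 19.8 and 22.3 CPM in U-2932 at 8 h, against 43.0 and 40.3 CPM at 0 h (-0.98 ± 0.14, adjusted p = 3.04e-07), and it passed the test in no other line, with 13 and 14 counts in SU-DHL-10 at 8 h, against 7 and 5 at 0 h (1.12 ± 0.49, adjusted p = 0.149).

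JCHAIN had 336 and 306 CPM in U-2932 at 8 h, against 477 and 443 CPM at 0 h (-0.52 ± 0.07, adjusted p = 1.41e-07). In OCI-LY3 it had 190.1 and 189 CPM at 8 h, against 321 and 359.6 CPM at 0 h (-0.84 ± 0.07, adjusted p = 2.5e-11). OCI-LY19 had 168 and 172 CPM at 8 h, against 204 and 228 CPM at 0 h (-0.35 ± 0.07, adjusted p = 0.000178). The times did not overlap in these 3 lines, while in SU-DHL-10 they did, with 179.7 and 162 CPM at 8 h, against 177 and 163 CPM at 0 h (0.01 ± 0.07, adjusted p = 1). The log2 change of JCHAIN was smaller than that of IGHM in U-2932 and larger in OCI-LY3, a comparison between genes that was not tested.

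JCHAIN is the only one of the 10 with an entry in the table of RefSeq promoters (GRCh38.p14, 250 bases before to 50 after the start). It lies on chromosome 4, outside the heavy chain locus on 14, the kappa locus on 2 and the lambda locus on 22. Its promoter, chr4:70666459-70666758 on the minus strand, is shown with that of VPREB3, chr22:23754376-23754675 on the minus strand. VPREB3 encodes a partner of nascent heavy chains and is not among the 10 genes. It was chosen after its values were seen, because it was called lower in all 4 lines, as CD79B also was. Capitals mark matches to the E-box, CANNTG, and to the octamer that Oct factors bind in variable segment promoters, ATGCAAAT, on either strand, and no E-box match overlaps an octamer match.
JCHAIN: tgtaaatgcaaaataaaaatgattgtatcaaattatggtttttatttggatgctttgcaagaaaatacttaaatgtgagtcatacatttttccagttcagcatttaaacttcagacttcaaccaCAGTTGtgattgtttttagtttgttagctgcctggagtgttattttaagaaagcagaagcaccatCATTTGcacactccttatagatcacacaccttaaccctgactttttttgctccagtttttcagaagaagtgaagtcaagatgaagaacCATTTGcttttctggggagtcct
VPREB3: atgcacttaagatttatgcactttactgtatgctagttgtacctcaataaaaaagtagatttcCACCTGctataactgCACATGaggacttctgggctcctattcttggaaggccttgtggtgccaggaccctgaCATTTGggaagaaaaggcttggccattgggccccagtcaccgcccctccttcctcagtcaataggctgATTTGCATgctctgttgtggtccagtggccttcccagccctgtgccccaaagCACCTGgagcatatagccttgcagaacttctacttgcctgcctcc
JCHAIN held 3 E-box matches and none to the octamer, and VPREB3 held 4 E-box matches and 1 to the octamer, read on the opposite strand. The octamer was in 623 of 35116 promoters of the table (1.774%) and an E-box in 68.678%, so an E-box match is common in windows of this length. A match is a run of letters and not a bound site, and a link between a match and the change at 8 h was not tested.

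The size of the change rests on scaling. Scaled by the spike-in totals, the median change of all genes was 0.70 for U-2932, 0.20 for OCI-LY3, 0 for OCI-LY19 and 0.11 for SU-DHL-10, and the genes of the list called lower numbered 7, 2, 3 and 0 in these lines. Of all genes tested, 4.21% were called lower on that scale in U-2932, with 3.83% for OCI-LY3, 12% for OCI-LY19 and 0.571% for SU-DHL-10. In SU-DHL-10, where 4.42% of all genes were called in either direction, 1 gene of the list was called and it was higher. In U-2932, IGHG1 (-2.10), IGHG4 (-1.91), IGHA1 (-1.54), IGHM (-0.56), IGHD (-0.51), IGLC2 (-0.48) and IGKC (-0.34) stayed lower, IGHG3 (-0.10, adjusted p = 0.65) and IGLC3 (-0.26, adjusted p = 0.343) lost their calls, and JCHAIN turned to 0.20 (adjusted p = 0.255), each on the log2 scale. IGHG1 and JCHAIN were the 2 called in OCI-LY3 (-1.45 and -0.59). The share of all called genes that were higher at 8 h was 50.9% with TMM and 92.5% with spike-ins in U-2932, 51.1% and 81.3% in OCI-LY3, and 50.1% and 87.1% in SU-DHL-10. With total counts and no TMM it was 26.6% in OCI-LY19, against 54.9% with TMM, and 70.6% in SU-DHL-10. The sources used here do not say how the spike-ins were added.

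**Figure D4:**
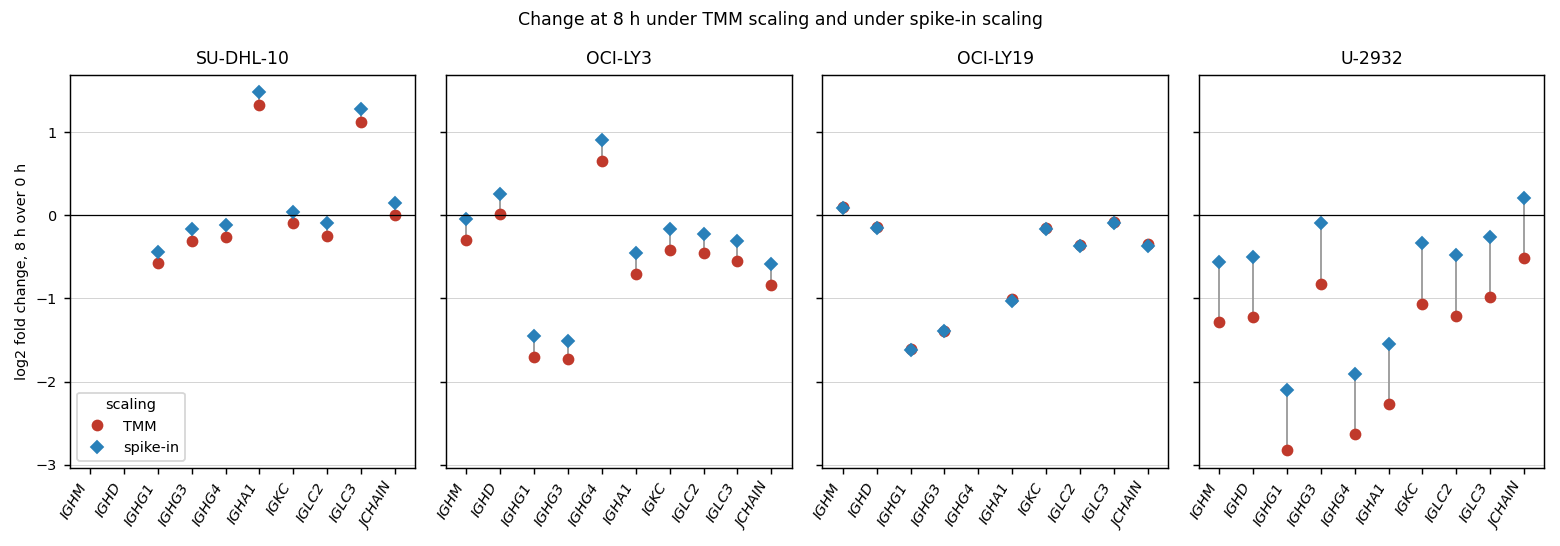
Log2 fold change at 8 h over 0 h of each gene under TMM scaling (circles) and spike-in scaling (diamonds) in the 4 lines; the line between the marks is the shift. All U-2932 diamonds lie above their circles, with IGHG1, IGHG4 and IGHA1 still the lowest, and in OCI-LY19 the marks nearly coincide.

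Whether the change differed between lines was tested on the difference itself. A test over all 4 lines (3 degrees of freedom) called all 10 genes, where 53.5% of all genes tested were called. For IGHD it compares the other 3 lines only, since SU-DHL-10 has 0 IGHD counts at both times, and for IGHM and IGHG4 it takes in groups of 3 or fewer counts. The change in U-2932 differed from that in SU-DHL-10 for 9 of 10 genes (32.8% of all genes), 9 lower (15% of all genes) and 0 higher (17.8%), with IGHM among the 9 resting on 1 count of SU-DHL-10 at 0 h. It differed from that in OCI-LY3 for 8 of 10 (38% of all genes), 7 lower (17.4%) and 1 higher (20.6%), and from that in OCI-LY19 for 7 of 10 (46.2%), 7 lower (22.2%) and 0 higher (24%). The comparisons share the U-2932 libraries. IGHG1 changed more in U-2932 than in SU-DHL-10 by -2.25 ± 0.16, than in OCI-LY3 by -1.11 ± 0.17 and than in OCI-LY19 by -1.22 ± 0.17 on the log2 scale (adjusted p = 1.9e-12, 2.48e-06 and 2.26e-07). This order is of the single gene. The gamma genes summed changed by -0.89 in U-2932, a smaller fall than in OCI-LY3 (-1.65) or OCI-LY19 and a larger one than in SU-DHL-10 (-0.28). IGHM changed more in U-2932 than in OCI-LY19 by -1.39 ± 0.09 (adjusted p = 3.95e-14). JCHAIN was the exception against OCI-LY3, with a difference of 0.33 ± 0.10 (adjusted p = 0.00956), since it fell more in OCI-LY3.

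Between OCI-LY3 and SU-DHL-10, 5 of 10 genes differed in response (14.2% of all genes), 5 lower in OCI-LY3 (6.89%) and 0 higher (7.28%). JCHAIN differed by -0.85 ± 0.10 (adjusted p = 1.03e-07) and IGHA1, which fell in OCI-LY3 but rose in SU-DHL-10, by -2.04 ± 0.43 (adjusted p = 0.000929). Between OCI-LY19 and SU-DHL-10, 5 of 10 differed as well (29.8% of all genes), 5 lower in OCI-LY19 (13.6%) and 0 higher (16.2%), with IGHA1 at -2.34 ± 0.36 (adjusted p = 4.32e-06). The IGHM difference counted among the 5 in both comparisons rests on the 1 count of SU-DHL-10 at 0 h.

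The responses of OCI-LY19 and OCI-LY3 differed for 3 of 10 genes (15.4% of all genes), 3 higher in OCI-LY19 (9.71%) and 0 lower (5.74%). They were JCHAIN (0.50 ± 0.10, adjusted p = 0.000653), IGHM (0.39 ± 0.09, adjusted p = 0.00347) and IGKC (0.27 ± 0.09, adjusted p = 0.0342), each of which fell in OCI-LY3. For IGHG1 the difference of 0.10 ± 0.12 did not pass (adjusted p = 0.676). With spike-in scaling the median of all genes in this comparison was -0.21 and 0 of the 10 passed in edgeR (5.1% of all genes), with 0 also at an unadjusted p under 0.05, while DESeq2 with its own size factors called 3. For U-2932 against OCI-LY19 it was 0.75, and 3 genes were called in place of 7 (46.7% of all genes), IGHM lower in U-2932 (-0.64, adjusted p = 0.00679), and JCHAIN (0.57, adjusted p = 0.0212) and IGHG3 (1.29, adjusted p = 0.011) higher there.

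Genes that act with immunoglobulin chains give the setting, from lists chosen with earlier results of these data known. The lists share genes, among them CD79A, CD79B, PAX5, PRDM1, XBP1, IRF4 and MZB1, so their counts are not independent of each other. All of these counts come from TMM scaling. The counts are to be read against all genes tested, of which 25% fell and 25.9% rose in U-2932, with 12.5% and 13% for OCI-LY3, 17.8% and 21.6% for OCI-LY19, 6.27% and 6.3% for SU-DHL-10. Of 5 receptor and surrogate chain genes, 3 fell and 0 rose in U-2932, with 4 and 0 for OCI-LY3, 3 and 1 for OCI-LY19, 3 and 0 for SU-DHL-10, so that 60% to 80% of the list fell in each line. The list is short, and in it VPREB1 averaged at most 1.40 CPM and IGLL1 at most 1.29 CPM in any group, so their calls rest on few counts. CD79B, a signalling partner of the membrane receptor, fell by 1.76 ± 0.08 on the log2 scale in U-2932, and in the others by 1.17 ± 0.08 (OCI-LY3), 1.37 ± 0.09 (OCI-LY19) and 0.69 ± 0.08 (SU-DHL-10). VPREB3 fell by 1.27 ± 0.13, 1.47 ± 0.10, 0.41 ± 0.10 and 0.90 ± 0.09 in the same order of lines. CD79A fell less than CD79B, by 0.77 ± 0.06 in U-2932, 0.39 ± 0.06 in OCI-LY3 and 0.34 ± 0.06 in SU-DHL-10. Its change of -0.11 ± 0.06 in OCI-LY19 did not pass (edgeR adjusted p = 0.168).

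Of 28 transcription factors of the immunoglobulin loci, 9 fell and 13 rose in U-2932, 14 fell and 7 rose in OCI-LY3, 14 fell and 10 rose in OCI-LY19, and 10 fell and 0 rose in SU-DHL-10. The 32.1% that fell in U-2932 is near the 25% of all genes, while 50% fell in OCI-LY3 (12.5% of all genes) and in OCI-LY19 (17.8%), and 35.7% in SU-DHL-10 (6.27%). In U-2932 46.4% of the list rose, above the share of all genes that rose there. POU2AF1, the coactivator of Oct factors, fell by 0.25 ± 0.08 (U-2932), 1.57 ± 0.09 (OCI-LY3), 0.82 ± 0.09 (OCI-LY19) and 0.54 ± 0.08 (SU-DHL-10). PAX5, which keeps B cell identity, rose by 0.91 ± 0.07 in U-2932 and fell by 0.35 ± 0.06 in OCI-LY3, with changes of 0.01 ± 0.06 (OCI-LY19) and 0.11 ± 0.06 (SU-DHL-10) that did not pass. PRDM1, the repressor that drives plasma cell fate, fell by 2.04 ± 0.15 in U-2932 and by 1.01 ± 0.20 in OCI-LY19. In OCI-LY3 its change of -0.47 ± 0.21 did not pass, and in SU-DHL-10 it averaged 0.0883 CPM at 8 h, against 0 at 0 h. NFKB1, which encodes the p50 subunit of NF-kappa-B, rose by 0.26 ± 0.07 in U-2932, by 1.5 ± 0.06 in OCI-LY3 and by 2.27 ± 0.07 in OCI-LY19, and its change of 0.08 ± 0.06 in SU-DHL-10 did not pass.

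Of 13 genes for processing of heavy chain mRNA, ELL2, an elongation factor that in mouse plasma cells favours the secreted form, fell by 2.12 ± 0.14 in U-2932, to 22.1 ± 3.01 CPM at 8 h, against 95.6 ± 10.6 CPM at 0 h, and averaged at most 0.227 CPM in the other 3 lines at both times. In that list 3 fell and 7 rose in U-2932; the numbers were 2 and 3 for OCI-LY3, 3 and 6 for OCI-LY19, 1 and 0 for SU-DHL-10. The shares that fell, 23.1% in U-2932 and 15.4% in OCI-LY3, are near those of all genes (25% and 12.5%), and 53.8% rose in U-2932 (25.9% of all genes). Of 31 genes for folding and secretion, 19 fell and 6 rose in U-2932 and 15 fell and 4 rose in SU-DHL-10, while 3 fell and 23 rose in OCI-LY19, and 4 fell and 7 rose in OCI-LY3. The share that fell was 61.3% in U-2932 (25% of all genes), 48.4% for SU-DHL-10 (6.27%) and 12.9% for OCI-LY3 (12.5%), and 74.2% rose in OCI-LY19 (21.6%). HSPA5, the chaperone that holds unassembled heavy chains, rose by 1.89 ± 0.06 in OCI-LY19 but fell by 0.53 ± 0.06 in U-2932 and by 0.92 ± 0.06 in SU-DHL-10, and its change of -0.05 ± 0.06 in OCI-LY3 did not pass. Secreted and membrane forms of the heavy chains are counted together here.

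Of 26 genes tested for class switching and somatic mutation, 7 fell and 12 rose in U-2932, 10 fell and 4 rose in OCI-LY3, 8 fell and 8 rose in OCI-LY19, and 2 fell and 3 rose in SU-DHL-10. The 26.9% that fell in U-2932 (25% of all genes) and 7.69% in SU-DHL-10 (6.27%) are near the background, and 38.5% fell in OCI-LY3 (12.5%). In U-2932 46.2% of this list rose, above the share of all genes that rose there. Of 12 immunoglobulin and Fc receptors tested, 8 fell and 2 rose in U-2932, with 6 and 0 for OCI-LY3, 7 and 1 for OCI-LY19, 2 and 0 for SU-DHL-10. The share that fell was 66.7% in U-2932 (25% of all genes), 50% for OCI-LY3 (12.5%), 58.3% for OCI-LY19 (17.8%) and 16.7% for SU-DHL-10 (6.27%). The Fc receptor-like gene FCRL3 fell by 3.90 ± 0.12 in U-2932, by 0.78 ± 0.10 in OCI-LY3 and by 1.12 ± 0.11 in OCI-LY19, and its change of -0.17 ± 0.12 in SU-DHL-10 did not pass. Of 7 plasma cell markers, 5 fell and 1 rose in U-2932, with 2 and 1 for OCI-LY3, 4 and 2 for OCI-LY19, 1 and 1 for SU-DHL-10, so that 71.4% fell in U-2932 (25% of all genes) and 57.1% in OCI-LY19 (17.8%). Those that rose were CD38 in U-2932 (0.86 ± 0.12), IRF4 in OCI-LY3 (2.15 ± 0.13) and MZB1 in SU-DHL-10 (0.28 ± 0.09). In OCI-LY19 they were IRF4 (2.63 ± 0.13) and XBP1 (1.19 ± 0.08). Of 8 pan-B-cell markers, 7 fell and 1 rose in U-2932, with 7 and 0 for OCI-LY3, 2 and 0 for OCI-LY19, 4 and 0 for SU-DHL-10. The 25% that fell in OCI-LY19 is near the 17.8% of all genes, while 87.5% fell in U-2932 (25%) and in OCI-LY3 (12.5%). The summed B-cell markers ran from 1703 to 1716 CPM in U-2932 at 8 h, against 2529.7 to 2596 CPM at 0 h. Their part in the change of the constant genes was not tested.

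Constant genes outside the list were low. IGHG2 held 8 and 13 counts in U-2932 at 8 h, against 53 and 61 at 0 h (-2.77 ± 0.51, adjusted p = 2.41e-05), and IGHA2 held 26 and 22 at 8 h, against 87 and 69 at 0 h (-2.04 ± 0.48, adjusted p = 0.000487). In OCI-LY19 IGHG2 held 7 and 6 counts at 8 h, against 28 and 17 at 0 h (-1.92 ± 0.60, adjusted p = 0.00975). IGLL5 had 6.07 ± 0.384 CPM in SU-DHL-10 at 8 h, against 2.87 ± 0.110 CPM at 0 h, a rise of 1.08 ± 0.22 (adjusted p = 0.00101), and 91.5 ± 3.22 CPM in U-2932 at 8 h, against 120.2 ± 11.6 CPM at 0 h (-0.39 ± 0.11, adjusted p = 0.00351).

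The most counted variable segment of each kind is given as values only, with no test. Being the most counted does not make a segment the one joined to the constant gene of its line. Whether each segment is a functional gene was not checked. In U-2932 a single heavy segment, IGHV4-39, held 97.5% of IGHV counts at 0 h, with 14272 and 13818 counts at 8 h, against 17342 and 18005 at 0 h, and IGKV3-20 held 97.5% of IGKV counts, with 45837 and 47443 at 8 h, against 65300 and 65297 at 0 h. In SU-DHL-10 the most counted IGHV segment was IGHV5-78 (61.6% of IGHV counts at 0 h), with 59 and 59 counts at 8 h, against 105 and 75 at 0 h. It also led in OCI-LY3 (28.5%), with 42 and 60 at 8 h, against 184 and 157 at 0 h. In OCI-LY19 it led (33.6%) with 85 and 60 at 8 h, against 264 and 268 at 0 h. These counts were far below those of the dominant heavy chain constant gene of each line. The most counted IGKV segment of OCI-LY3 and OCI-LY19 was also IGKV3-20, with 216 and 163 counts in OCI-LY3 at 8 h, against 197 and 187 at 0 h, and 151 and 153 in OCI-LY19 at 8 h, against 240 and 236 at 0 h. The most counted IGKV segment of SU-DHL-10 was IGKV2OR2-2, with 19 and 20 counts at 8 h, against 19 and 14 at 0 h. In SU-DHL-10 IGLV2-23 led the lambda segments, with 313 and 267 counts at 8 h, against 435 and 220 at 0 h, the second 0 h library again being low as it was for IGLC2. IGLV6-57 led them in U-2932, with 215 and 203 counts at 8 h, against 175 and 148 at 0 h. It also led in OCI-LY3 (15 and 17 at 8 h, against 109 and 107 at 0 h) and OCI-LY19 (14 and 17, against 210 and 174).

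By the likeness of their log2 CPM profiles over the 16 libraries, each centred on its mean, the nearest gene to IGHG1 was EPSTI1, at a root mean square difference of 0.524. The nearest gene to IGHG3 was PDLIM1 (0.618), to IGHA1 SECTM1 (0.853), to IGKC RASSF6 (0.689), to IGLC2 KCNH8 (0.281), to IGLC3 CHST2 (0.395) and to JCHAIN NCBP2AS2 (0.204). The distances were largest for IGHM (PHGDH, 2.02) and IGHG4 (NELL2, 1.67), the genes with the widest range between lines. They are not scaled to the spread of each gene. The SD of log2 CPM over the 16 libraries was 6.31 for IGHM and 5.45 for IGHG4, against 0.544 for JCHAIN. Closeness can therefore not be compared between genes from these distances. The distances reflect the 4 lines more than the 2 times, and the 16 points share lines and libraries.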

How the data were processed

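Poly(A) RNA of 16 libraries was analysed as a table of whole-number gene counts deposited by the authors, with Ensembl IDs and 92 spike-ins. Per the submitters' processing notes, Trimmomatic, Bowtie2 and DESeq2 were among the tools and GRCh38 and hg19 among the builds, with no role given. The aligner, counter, annotation and strand setting of the counts are not named in any label or header. Symbols were matched for 58207 of 58676 IDs. The 8 ATAC samples were not analysed here.

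Groups came from the labels. Counts were filtered with filterByExpr, scaled by TMM and tested over 8 groups (8 residual degrees of freedom, median biological coefficient of variation 8.5%) with edgeR 4.0.16's quasi-likelihood test in R 4.3.3 (limma 3.58.1), at a Benjamini-Hochberg adjusted p of 0.05 over 17327 genes. Errors of log2 fold changes are standard errors from the F statistic. A group with 3 or fewer counts gets a ratio or a bound, with a floor of 3 counts over the group. Shares have exact Clopper-Pearson 95% intervals. The procedure was tested on simulated data. Depth limits the genes with few counts, whose values are given as counts.

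Alternatives were DESeq2 1.42.0, RLE, total counts without TMM, scaling without 417 immunoglobulin IDs, spike-in scaling, no filter, a filter of 5 CPM in 2 libraries, summed near-identical genes, a replicate block, each line alone and each library left out. Named genes were the 10 members, the most counted variable segment of each kind, and the nearest profiles by root mean square difference (prior count 2, members reaching 5 CPM). From each list some of the 4 genes per line with the smallest p were named, and not all of them (then given in other lines too). The plasma cell markers that rose were named as well. The nearest profile to IGHD is not reported here. Members and lists were chosen with earlier results of these data known.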

Additional observations from a re-analysis of the deposited data

Results flagged for a closer look

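The 8 h change of the 10 genes differed among the lines by a test of the difference itself (edgeR's quasi-likelihood test, 3 degrees of freedom, adjusted over all genes), which 53.5% of all genes tested also passed. SU-DHL-10 held 0 IGHD counts at both times, so the IGHD test compares the other 3 lines, and those of IGHM and IGHG4 take in groups of 3 or fewer counts. The adjusted p was 1.52e-13 for IGHM, 1.49e-05 for IGHD and 7.12e-13 for IGHG1. It was 0.00101 for IGHG3, 0.000264 for IGHG4 and 5.94e-11 for IGHA1. Among the light chains it was 5.69e-10 for IGKC, 1.71e-05 for IGLC2 and 0.000924 for IGLC3, and it was 1.38e-07 for JCHAIN. The direction was lower in U-2932 for all 10 genes, while IGHA1 was higher at 8 h in SU-DHL-10 (1.33 ± 0.35 on the log2 scale).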

How the results depend on the processing

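Spike-in scaling moved the most results. Under it the genes called at 8 h numbered 1 for SU-DHL-10 (4.42% of all genes), 2 for OCI-LY3 (20.5%), 3 for OCI-LY19 (24.3%) and 7 for U-2932 (56.4%), and JCHAIN in U-2932 reversed to 0.20. The genes called for a difference in response numbered 5 for U-2932 against SU-DHL-10 (34.9% of all genes), 6 for U-2932 against OCI-LY3 (33.8%), 3 for U-2932 against OCI-LY19 (46.7%), 3 for OCI-LY3 against SU-DHL-10 (4.8%), 3 for OCI-LY19 against SU-DHL-10 (14.5%), 0 for OCI-LY19 against OCI-LY3 (5.1%), and 6 over all lines (49.5%). Without TMM, 1 gene was called for OCI-LY19 against OCI-LY3 in response (18.3% of all genes), and on the SU-DHL-10 libraries alone 1 was called at 8 h (10.9%); the cause was not tested. With near-identical genes summed, IGHG4 in OCI-LY3 takes the value of the gamma sum, -1.65. Under that setting IGHG1, IGHG3 and IGHG4 each take the gamma sum, and IGLC2 and IGLC3 the lambda sum. A change in a sum is therefore counted again for each of its genes. Counted so, 13 values of the 10 genes in line pairs, at 0 h or in response, changed direction. Another 5 gained a call, 1 lost it and 101 kept their status. Within the 10 genes the IGKC share was 94.22% for OCI-LY3 at 8 h, against 94.03% at 0 h, 94.66% for OCI-LY19 at 8 h, against 94.04% at 0 h, and 96.96% for U-2932 at 8 h, against 96.78% at 0 h, and the IGHM share of OCI-LY19 was 96.04% at 8 h, against 90.17% at 0 h. Leaving out single libraries gave 1 to 5 genes at 8 h for SU-DHL-10 (lowest without the second 8 h or first 0 h library), 5 to 7 for OCI-LY3, 3 to 6 for OCI-LY19 and 10 for U-2932. At 0 h it gave 5 to 10 for OCI-LY19 against OCI-LY3 (lowest without the first 0 h OCI-LY3 library) and 9 to 10 for the other pairs. For responses it gave 3 to 5 for OCI-LY3 against SU-DHL-10 and 3 to 6 for OCI-LY19 against SU-DHL-10, each 3 without the second 8 h SU-DHL-10 library, and also without the second 0 h library of SU-DHL-10 in the OCI-LY3 comparison or of OCI-LY19 in its own, 2 to 3 for OCI-LY19 against OCI-LY3, 8 to 9, 7 to 8 and 6 to 8 for U-2932 against SU-DHL-10, OCI-LY3 and OCI-LY19, and 10 over all lines. The labels do not say whether same-numbered libraries belong together. The correlation of their deviations was 0.016, 0.0339, -0.0118 and -0.0119 by line, which cannot settle it with 1 deviation per line and time. With the replicate block the genes called were 4 for SU-DHL-10, 7 for OCI-LY3, 5 for OCI-LY19 (IGLC2 gained, adjusted p = 0.0193) and 10 for U-2932.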
